A study of Mus musculus with 39 samples.

Results

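Ischaemic injury of 2 kinds was compared directly: 4 heart libraries taken 3 days after ischaemia-reperfusion (IR) against 4 taken 8 weeks after myocardial infarction (MI), with no sham library in the comparison. These 8 libraries were chosen by their titles from 39 in the series. All came from male C57BL6/J mice with a wild-type genotype that were operated on at 12 weeks of age, and the tissue was left ventricle outside the infarcted territory. In IR the left anterior descending coronary artery was tied and released, and the labelled age at collection was 12 weeks. In MI the same artery stayed tied, and the labelled age was 20 weeks. The 4 sham-operated libraries, 2 labelled 12 weeks and 2 labelled 20 weeks, are shown beside them. Injury type, time since surgery and age differ together between IR and MI and cannot be told apart. The labels do not say whether a library is a single animal or a pool, so a p-value here measures the spread between these libraries.

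In the days after a heart attack, neutrophils and then monocytes enter the injured heart, dead tissue is cleared, and stromal and immune cells divide. Over the following weeks inflammation recedes, fibroblasts lay down and remodel matrix, and surviving myocardium under raised wall stress switches on natriuretic peptides and other stress genes. Myocardium away from the infarct takes part in both phases.

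Read counts assigned to genes totalled 11.2 M to 15.7 M per IR library, 10.8 M to 14.1 M per MI library and 9.4 M to 13.3 M per sham library. Mitochondrially encoded genes took 19.6% ± 1.28 of the counts in IR and 21% ± 2.15 in MI (SD, n = 4 each; two-sided exact permutation p = 0.286, where the smallest possible p is 0.0286), against 23.1% to 26% in the shams. Along the first principal component of the 12 libraries, which held 45.3% of the variance, the 4 IR libraries lay at 23.9 to 39.8 and the other 8 at 2.77 or below. The second component, with 20.2%, placed the 4 MI libraries at 12.3 to 33.7 and all others below 0. As a check of the ventricular label, the 11 cardiomyocyte genes summed to 47102 to 77769 CPM (counts scaled to a common library total) in the 8 libraries. Atrial, adipocyte and plasma cell markers were nevertheless raised in some MI libraries, as described further on. In the sham labelled 12 weeks, replicate 2, Myh7, the slow myosin heavy chain, stood at 8816 CPM against 290 to 992 CPM in the other 3 shams.

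A gene was called where its edgeR quasi-likelihood p, adjusted over all genes tested, was under 0.05, and levels below are CPM scaled by the trimmed mean of M-values. Of 13426 genes tested, 3008 were called (22.4%). Of these 1585 were higher in IR (11.8% of the genes tested) and 1423 were lower (10.6%). Large changes were mostly increases in IR: 603 called genes were more than 1 log2 unit higher and 165 were more than 1 log2 unit lower. The split depends on scaling. With library size alone in place of the trimmed mean, the median of all genes shifted from -0.01 to 0.12 log2 units, and 2514 genes were called higher against 622 lower.

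**Figure D1:**
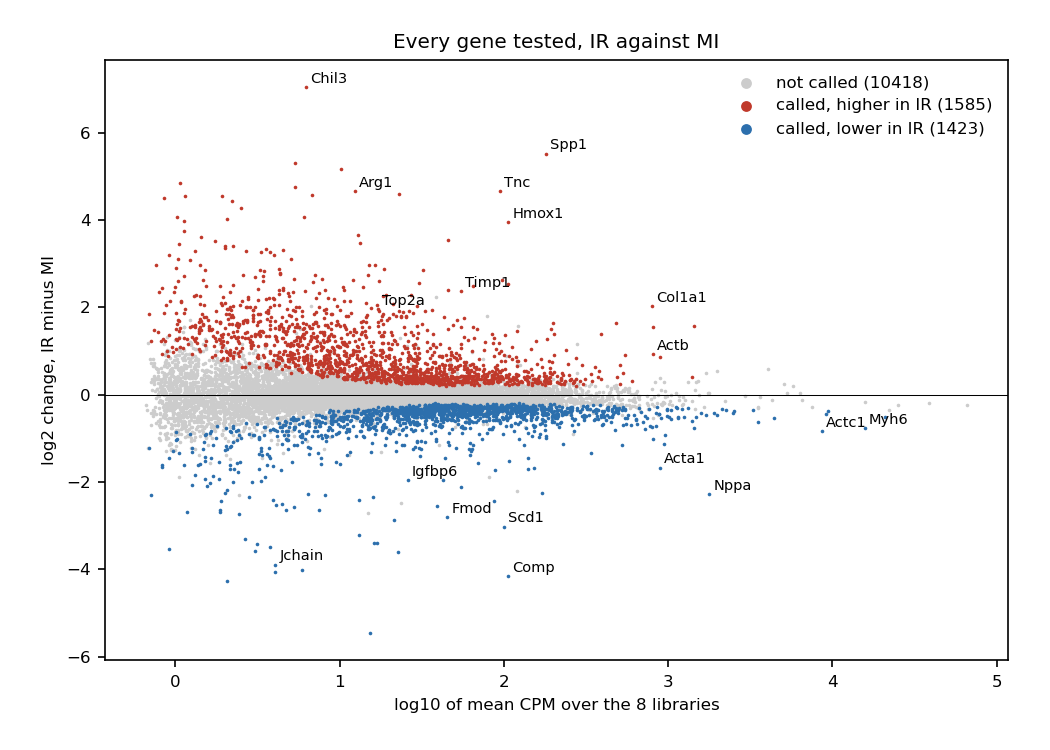
Each point is 1 of the 13426 genes tested, with the log10 of its mean CPM over the 8 libraries on the horizontal axis and its log2 change, IR minus MI, on the vertical axis. Called genes are red where higher in IR and blue where lower; the 1585 red points reach 7.04 (Chil3) and many exceed 4, whereas the 1423 blue points lie mostly closer to 0.

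Several of the 10 largest increases were in genes known from activated myeloid cells. Spp1 encodes osteopontin, a secreted phosphoprotein of wound macrophages. It measured 247, 488, 210 and 470 CPM in the 4 IR libraries against 7.09, 10.6, 7.79 and 5.01 CPM in MI and 1.08 to 5.06 CPM in the shams. The IR libraries lay far above all others, and the log2 change was 5.52 ± 0.33 (SE; edgeR adjusted p = 3.75e-06). Chil3, a chitinase-like protein of alternatively activated and inflammatory mononuclear cells, had the largest change, 7.04 ± 0.75, with 5.60 to 25.8 CPM in IR and 0.177 CPM or less in MI. Only 4 reads in all supported it in MI, so its fold is imprecise. Arg1, the arginase of repair-type macrophages, was 4.66 ± 0.47 log2 units higher and Saa3, an acute-phase serum amyloid, 4.75 ± 0.59. Cxcl5, a neutrophil-attracting chemokine, rose by 4.57 ± 0.26, and Clec4d, a myeloid C-type lectin receptor, by 4.08 ± 0.23. Cd300lf, Slfn4 and Adam8 were 5.31 ± 0.46, 5.17 ± 0.37 and 4.60 ± 0.30 log2 units higher. Tnc, the matricellular protein tenascin C that appears at wound edges, was 47.8, 276, 203 and 203 CPM in IR and 5.81 to 8.53 CPM in MI, a log2 change of 4.67 ± 0.45. For these 10 genes every IR library exceeded every MI library, as the rule for naming them required; across all genes tested that held for 13.3%.

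The smallest adjusted p belonged to Hmox1, the haem oxygenase that breaks haem down to iron, carbon monoxide and biliverdin. Its level was 159, 159, 219 and 261 CPM in IR and 11.1, 15.7, 12.6 and 11.9 CPM in MI. The 4 MI libraries sat inside the sham range of 8.98 to 16.8 CPM. The log2 change was 3.95 ± 0.18 (edgeR adjusted p = 9.82e-07), 15.5-fold. Ftl1, the ferritin light chain that stores iron, named after its values were seen, was also higher, at 248 to 330 CPM against 90.7 to 108 CPM (1.51 ± 0.11).

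The largest fall was in Comp, cartilage oligomeric matrix protein. It measured 9.03, 7.01, 20.0 and 9.49 CPM in IR against 238, 299, 140 and 126 CPM in MI. IR overlapped the sham range of 3.92 to 16.5 CPM and MI lay above it, and the difference was -4.16 ± 0.36 log2 units (edgeR adjusted p = 3.24e-05). Fmod, the collagen-binding proteoglycan fibromodulin, showed the same arrangement (6.54 to 22.4 CPM in IR, 44.6 to 110 CPM in MI, 3.72 to 23.2 CPM in the shams; -2.81 ± 0.37). Col8a2 was -3.21 ± 0.36 and Col22a1, a collagen of tissue junctions, -2.64 ± 0.28. Also among the 10 largest falls were Dio2, the deiodinase that activates thyroid hormone (-2.86 ± 0.42), Atp6v0a4, a proton pump subunit (-3.49 ± 0.45), Scd1, a fatty acid desaturase (-3.02 ± 0.65), and the plasma cell genes Jchain (-3.89 ± 0.80) and Igkc (-3.39 ± 0.70). The last of the 10, 1500015O10Rik, was -2.63 ± 0.37. All 10 falls were smaller with MI replicate 4 as the only MI library, as given further on.

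The sham libraries place these differences on an axis that the direct comparison lacks. Among the 1585 genes higher in IR, 938 (59.2%) had all 4 IR libraries above all 4 shams while MI overlapped the shams; among all genes tested 11% had this arrangement. In 227 (14.3%) both injuries lay above the shams, with IR higher still, against 4.86% of all genes tested. Among the 1423 genes lower in IR, the arrangement was more mixed. Both injuries overlapped the shams in 584 (41%), fewer than the 64% among all genes tested. IR alone lay below the shams in 476 (33.5%, against 7.98%), and MI alone lay above them in 279 (19.6%, against 4.1%). In 23 genes IR lay below and MI above all 4 shams. These are positions of libraries and carry no test. The called genes were picked because IR and MI differ in these same libraries. That choice by itself raises the shares with an injury apart from the shams and lowers the share with both overlapping. The shares over all genes tested were not picked so, and the gaps between the shares are description only.

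**Figure D2:**
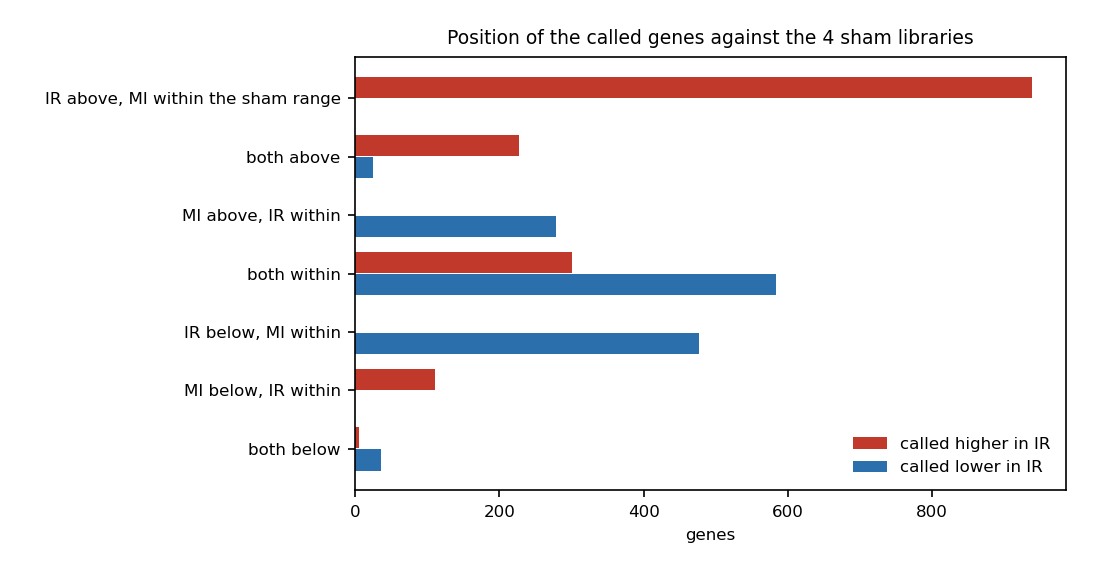
Bars count called genes by where the 4 IR and the 4 MI libraries lie against the range of all 4 sham libraries, red for genes higher in IR and blue for genes lower in IR. The longest red bar is IR above with MI overlapping the sham range (938 genes), and the blue bars are spread over both overlapping (584), IR below (476) and MI above (279). A bar label of within means overlap: the group lay neither wholly above nor wholly below the 4 shams, and single libraries may lie outside their range.

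Markers of infiltrating myeloid cells were higher in IR throughout. All 12 genes of the recruited macrophage and monocyte list were called higher, with a median of 2.65 log2 units beside -0.01 for all genes tested. Their summed level was 792 to 1772 CPM in IR, 207 to 355 CPM in MI and 73.9 to 125 CPM in the shams, so the MI sum also lay above the shams. Fn1, which is in the matricellular list too, averaged 215.5 CPM in MI and made up most of the sum there. In IR Fn1 and Spp1 averaged 568.7 and 353.7 CPM and together made up most of the sum. In bulk tissue, more cells of a type and more RNA per cell cannot be told apart. Ccr2, the receptor by which monocytes leave the marrow, was 25.3, 36.4, 36.5 and 48.9 CPM in IR and 12.5, 12.7, 9.19 and 8.67 CPM in MI. The groups did not overlap (1.77 ± 0.19). Fcgr1, the high-affinity IgG receptor, was 20.1 to 29.3 CPM against 3.13 to 5.50 CPM (2.47 ± 0.18). Gpnmb and Trem2, markers of lipid-handling macrophages, were 3.54 ± 0.44 and 2.60 ± 0.26 log2 units higher. Of 14 genes common to macrophages, 13 were higher and none lower (median 1.25). They include Cd68, the lysosomal macrophage protein, at 58.7, 102, 53.4 and 92.2 CPM in IR and 13.5, 17.4, 13.7 and 13.3 CPM in MI (2.39 ± 0.20), and Ctss, the protease cathepsin S (2.53 ± 0.21).

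Resident macrophage markers did not move in parallel. Of 10 tested, 2 were higher (20%, against 11.8% of all genes tested) and none lower, with a median of 0.08. Their sum was 453 to 468 CPM in IR and 390 to 522 CPM in MI. Both injuries lay above the shams, at 280.5 to 359.4 CPM. Mrc1, the mannose receptor, was higher (61.4 to 87.2 CPM against 39.1 to 51.0 CPM; 0.66 ± 0.12). Lyve1, the hyaluronan receptor of long-lived cardiac macrophages, was 13.4 to 18.5 CPM in IR and 15.7 to 26.6 CPM in MI and was not called (-0.20 ± 0.17, edgeR adjusted p = 0.443); its sign depended on MI replicate 2, without which it was 0.03. Cd163, a haemoglobin scavenger receptor, was likewise not called (0.23 ± 0.18, edgeR adjusted p = 0.393). The contrast between the macrophage lists was not tested.

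Of 10 neutrophil markers 5 were abundant enough to test, and all 5 were higher in IR. The counts of the other 5 were too low. A gene can pass the filter on low counts through a single group. Mmp8 averaged 2.19 CPM in IR and 0.0856 CPM in MI and passed through IR. That all 5 tested were higher is therefore partly set by the filter and is not separate support. Csf3r, the receptor for granulocyte colony-stimulating factor, was 15.3 to 24.8 CPM in IR and 2.23 to 5.14 CPM in MI (2.40 ± 0.24). S100a8, a calcium-binding alarmin, was 4.62 to 8.24 CPM against 0.0825 to 2.84 CPM (2.61 ± 0.57). The sum over the list was 30.4 to 49.2 CPM in IR and 3.71 to 14.5 CPM in MI, where replicate 2 was the highest. Of 24 chemokine and receptor genes, 16 were higher and 1 was lower (median 1.75). Ccl7, a monocyte attractant, was 24.1, 31.9, 26.1 and 16.2 CPM in IR and 1.49, 3.72, 1.91 and 1.61 CPM in MI (3.48 ± 0.28). In the 12-week shams it read 3.95 and 13.3 CPM. The exception was Cx3cl1, the membrane-bound chemokine fractalkine, which was lower in IR (14.7 to 19.5 CPM against 22.7 to 43.5 CPM; -0.93 ± 0.17). Of 20 cytokine and acute inflammation genes 14 were higher and none was lower. Lcn2, an iron-sequestering acute-phase protein, changed by 3.66 ± 0.24, and Il1r1, the signalling receptor for interleukin 1, by 0.91 ± 0.08 with little spread (43.8 to 52.3 CPM against 23.3 to 26.3 CPM). In the complement list the numbers were even, 6 higher and 6 lower of 15: Cfp, properdin of the alternative pathway, and C5ar1, the C5a receptor, were higher (1.37 ± 0.13 and 1.81 ± 0.17).

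**Figure D3:**
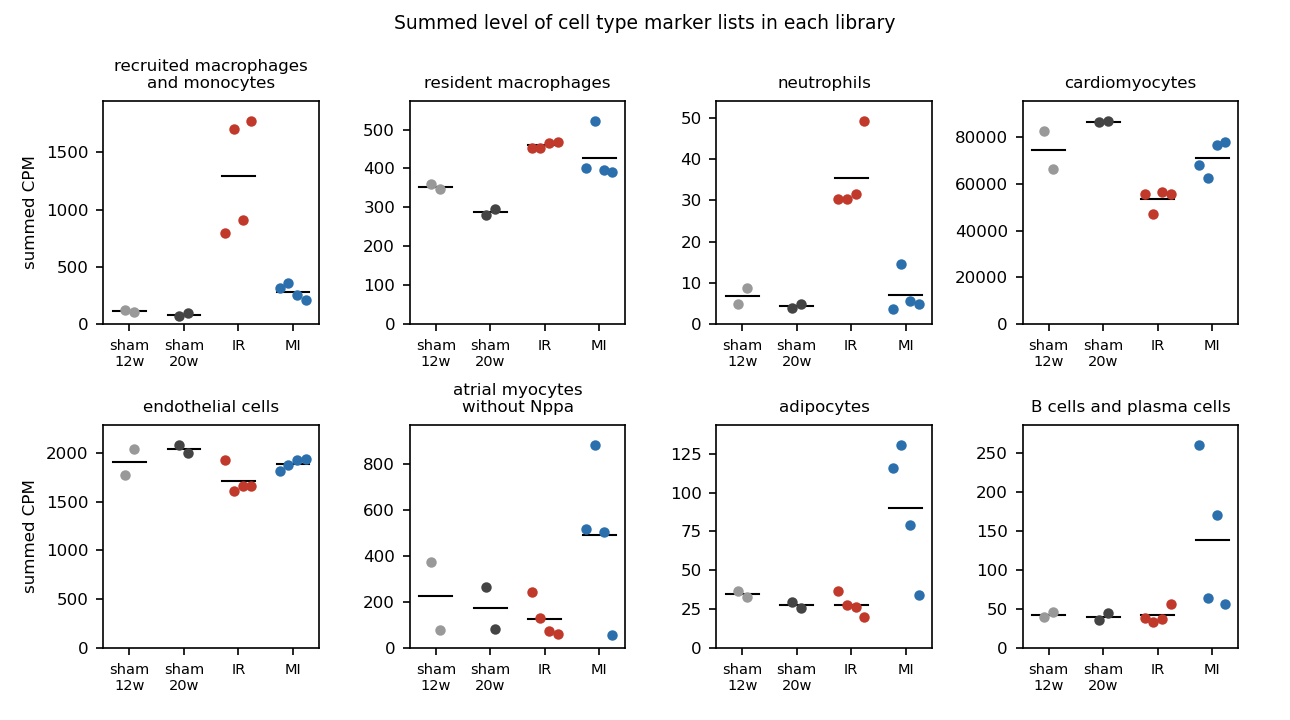
Each point is 1 library and each line a group mean; the vertical axes give the summed CPM of a cell type marker list from 0, for 2 shams of each age, 4 IR and 4 MI libraries. Recruited macrophage and neutrophil markers are highest in the 4 IR libraries, resident macrophage and endothelial sums are close in IR and MI, and the atrial (without Nppa), adipocyte and B and plasma cell sums are high in some MI libraries and not in others.

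Genes of cell division were higher in IR without exception in the mitosis list. All 26 genes were called higher, with a median of 1.66 log2 units. Their sum was 186 to 364 CPM in IR, 76.8 to 96.4 CPM in MI and 47.8 to 87.2 CPM in the shams. Top2a, the topoisomerase that untangles chromosomes before they separate, was 18.1, 31.4, 20.8 and 39.3 CPM in IR and 6.10, 7.71, 8.08 and 5.90 CPM in MI (1.96 ± 0.24, edgeR adjusted p = 0.000254). Mki67, the proliferation antigen Ki-67, was 20.7, 42.5, 27.8 and 42.2 CPM against 11.1, 7.71, 9.70 and 8.31 CPM (1.84 ± 0.22). The same pair of IR libraries, replicates 2 and 4, was highest for both genes and for Cdk1, the mitotic kinase (13.9 and 16.1 CPM against 7.90 and 9.99 CPM in the other IR libraries; 2.01 ± 0.26). Those replicates also had the highest recruited macrophage sums, 1707 and 1772 CPM against 792 and 909 CPM, most of it from Fn1 and Spp1. The part of infiltrating cells in the mitotic signal was not tested. Of 27 DNA replication genes 16 were higher and none lower, with a smaller median of 0.65. Tk1, thymidine kinase, rose by 1.61 ± 0.24, Mcm6, a subunit of the replicative helicase, by 0.75 ± 0.15, and Pcna, the sliding clamp, by 0.43 ± 0.09.

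Promoters of the division genes are shown because all the mitosis genes moved together. Sequences are from RefSeq (GRCm38.p6), 250 bases ending at the start of the gene, with motifs in capitals: for Top2a (chr11:99024190-99024439, minus strand) and Cdk1 (chr10:69352913-69353162, minus strand) the cell cycle homology element TTTGAA or TTCGAA and the CCAAT box, and for Mcm6 (chr1:128359706-128359955, minus strand) the E2F motifs TTTCGCGC and TTTGGCGC, which share bases in the first capital run. Each motif was read on both strands.
Top2a: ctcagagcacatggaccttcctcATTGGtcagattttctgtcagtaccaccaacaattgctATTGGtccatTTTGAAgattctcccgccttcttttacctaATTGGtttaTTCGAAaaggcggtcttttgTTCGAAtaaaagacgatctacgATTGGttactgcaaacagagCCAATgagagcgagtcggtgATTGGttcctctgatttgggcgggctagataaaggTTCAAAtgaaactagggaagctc
Cdk1: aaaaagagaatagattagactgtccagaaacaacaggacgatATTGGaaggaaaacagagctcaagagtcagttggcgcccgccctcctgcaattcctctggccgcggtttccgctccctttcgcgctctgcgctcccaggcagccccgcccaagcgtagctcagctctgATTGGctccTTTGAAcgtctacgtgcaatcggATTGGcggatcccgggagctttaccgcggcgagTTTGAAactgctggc
Mcm6: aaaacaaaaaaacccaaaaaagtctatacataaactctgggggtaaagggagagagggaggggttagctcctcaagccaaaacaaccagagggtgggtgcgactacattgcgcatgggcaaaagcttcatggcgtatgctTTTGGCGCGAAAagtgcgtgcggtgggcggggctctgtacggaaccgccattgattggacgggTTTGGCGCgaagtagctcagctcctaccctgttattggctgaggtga
Top2a holds 6 CCAAT boxes and 4 cell cycle homology elements in this window, and Cdk1 holds 3 and 2. Of 26 mitosis genes 21 had a promoter in the reference; searched from 250 bases before to 50 after the start, 17 (81%) held TTTGAA or TTCGAA and 18 (85.7%) held CCAAT. Among all 27025 promoters the shares were 19.4% and 37.9%. For DNA replication, 8 of 23 promoters (34.8%) held TTTCGCGC, TTTGGCGC or TTTCCCGC, against 1.91% of all promoters. These are matches of letters, not measured sites. The lists were written from general knowledge and counted whole, whether or not a gene was called. The shares therefore describe the lists and not the difference between IR and MI.

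Secretory, translational and cytoskeletal genes were also higher in IR. Of 20 tested genes of the unfolded protein response and folding enzymes, 15 were higher and none lower (median 0.39). The sum over that list was 3099.6 to 3402.3 CPM in IR and 2383.5 to 2520.1 CPM in MI. The shams, at 2358.2 to 3173.4 CPM, overlapped both. Pdia6, a disulphide isomerase of the endoplasmic reticulum, was 175, 165, 167 and 175 CPM in IR and 97.0, 102, 95.9 and 93.1 CPM in MI. The groups were tight and separate (0.80 ± 0.07, edgeR adjusted p = 3.24e-05). Sham 12 weeks replicate 2 lay between them at 126 CPM. Edem1, which sends misfolded glycoproteins to degradation, rose by 0.95 ± 0.14. Of 20 ribosomal protein genes 18 were higher, by a median of only 0.31; Rplp0, a stalk protein of the large subunit, was 550 to 576 CPM against 415 to 433 CPM (0.40 ± 0.07). Of 20 cytoskeleton and motility genes 18 were higher and none lower (median 0.72). Actb, cytoplasmic actin, was 1143, 1037, 996 and 1077 CPM in IR and 546, 631, 563 and 452 CPM in MI (0.94 ± 0.10), with the shams at 423 to 680 CPM. Of 20 interferon-stimulated genes 12 were higher and none lower (median 0.61). Mx1, an antiviral GTPase, was 11.7, 11.1, 17.5 and 7.05 CPM in IR and 2.97, 3.28, 1.98 and 1.79 CPM in MI (2.22 ± 0.29), and Isg15, a ubiquitin-like modifier, was 10.97 to 17.8 CPM against 4.38 to 7.89 CPM (1.21 ± 0.21).

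A further pair of promoters carries motifs of these programmes, again as 250 bases ending at the start. Capitals mark the endoplasmic reticulum stress element, CCAAT and CCACG with 9 bases between them, in Pdia6 (chr12:17266339-17266588, plus strand), and overlapping copies of the core of the interferon-stimulated response element, TTTC and TTTC with any 2 bases between them, in Isg15 (chr4:156200819-156201068, minus strand).
Pdia6: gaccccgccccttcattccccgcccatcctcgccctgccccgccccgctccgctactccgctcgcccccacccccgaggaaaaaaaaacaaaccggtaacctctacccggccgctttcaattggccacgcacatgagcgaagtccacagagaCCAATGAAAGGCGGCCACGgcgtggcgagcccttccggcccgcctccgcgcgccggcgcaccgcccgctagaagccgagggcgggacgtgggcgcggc
Isg15: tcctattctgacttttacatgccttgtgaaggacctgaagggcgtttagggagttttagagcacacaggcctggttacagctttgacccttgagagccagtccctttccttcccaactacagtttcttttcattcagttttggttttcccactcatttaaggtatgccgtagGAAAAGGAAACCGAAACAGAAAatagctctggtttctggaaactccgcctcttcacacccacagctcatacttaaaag
The stress element was found in 9 of 18 promoters of its list (50%) and in 0.13% of all promoters. The interferon element was found in 8 of 14 promoters of interferon-stimulated genes (57.1%) and in 3.49% of all promoters. As above, these shares describe the lists and not the difference between IR and MI.

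**Figure D4:**
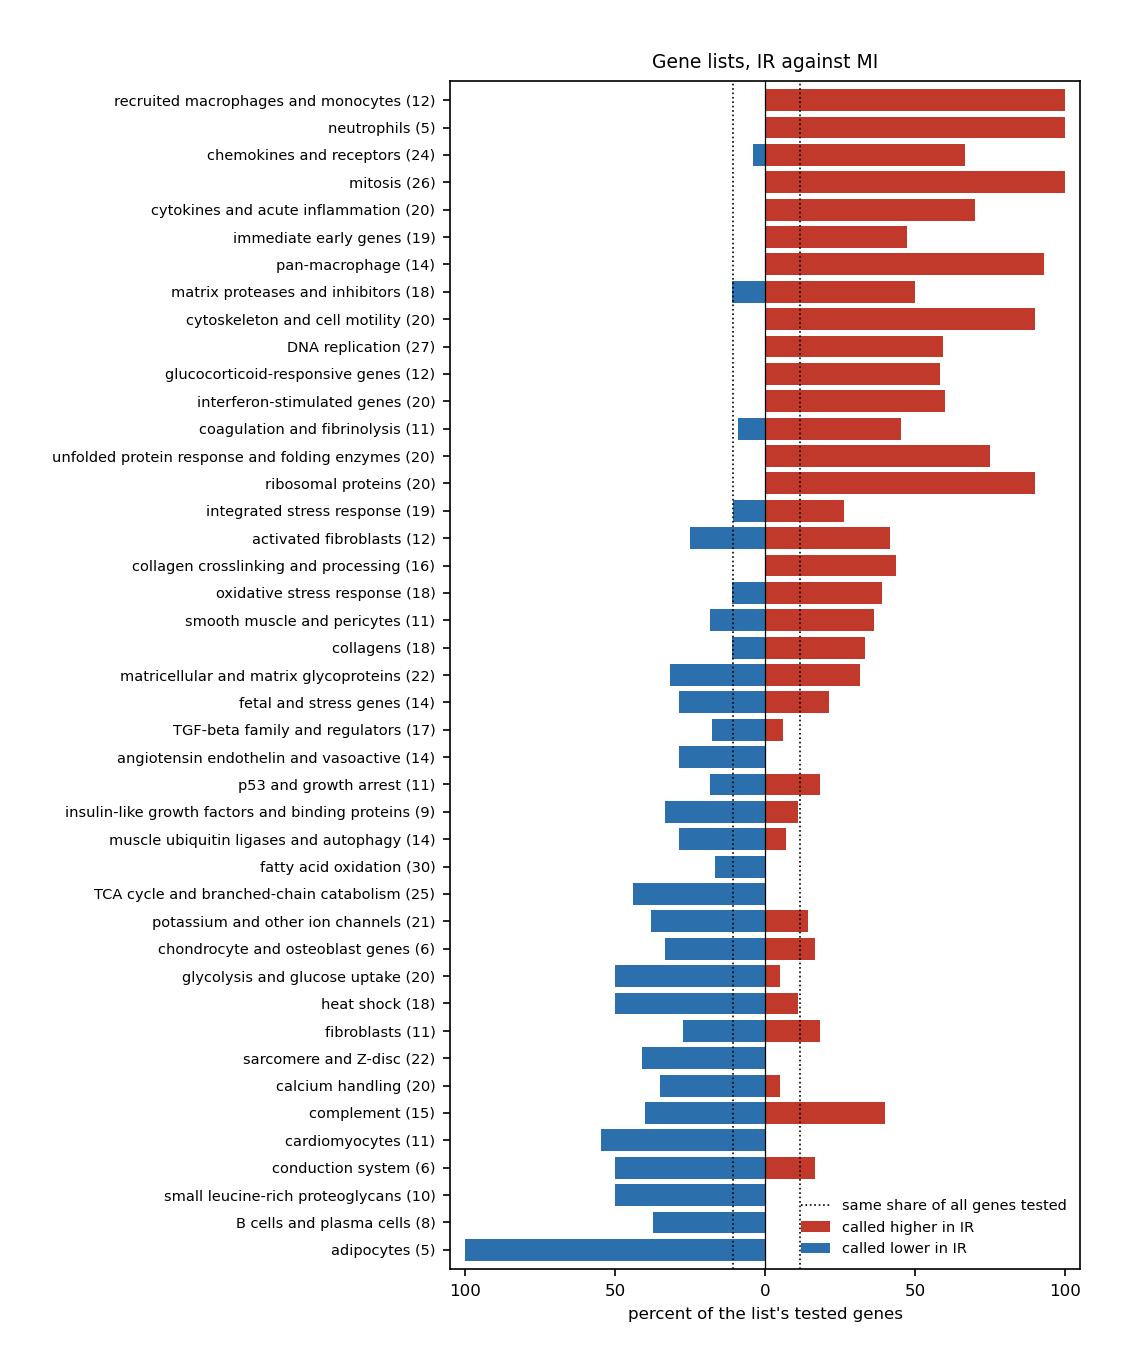
Bars give the percent of each gene list's tested genes (number in parentheses) called higher in IR, to the right in red, and lower in IR, to the left in blue, for lists with at least 5 tested and 3 called genes, ordered by their median log2 change. Dotted lines mark the same shares over all genes tested, 11.8% and 10.6%; myeloid, division, cytoskeletal, ribosomal and folding lists reach far past the right line, and sarcomere, glycolysis, heat shock and proteoglycan lists past the left. With library size alone the heat shock list has 3 higher and 4 lower, and the glycolysis list 2 and 5.

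The matrix lists differed in direction. Of 18 collagens 6 were higher in IR (33.3%, against 11.8% of all genes tested). Only 2 were lower (11.1%, near the 10.6% of all genes tested). Of 22 matricellular genes 7 were higher and 7 lower (31.8% each). Of 10 small leucine-rich proteoglycans 5 were lower (50%) and none higher. Col1a1, the main fibrillar collagen chain, was 753, 1268, 1049 and 2038 CPM in IR, 323, 405, 283 and 227 CPM in MI and 91.5 to 224 CPM in the shams (2.03 ± 0.27). Both injuries therefore lay above the shams, and IR above MI. Col3a1 and Col1a2 changed by 1.57 ± 0.21 and 1.55 ± 0.23. In the matricellular list Fn1, fibronectin, which provisional matrix is built from, was 307, 644, 432 and 891 CPM against 239, 273, 200 and 151 CPM (1.39 ± 0.28), and Cthrc1, secreted by activated fibroblasts, was 15.7 to 42.4 CPM against 2.65 to 5.50 CPM (2.97 ± 0.32). In the other direction Thbs4, a thrombospondin of stretched muscle and tendon, was 12.0, 48.1, 34.4 and 15.7 CPM in IR and 164, 192, 134 and 99.7 CPM in MI (-2.44 ± 0.37). Cilp, cartilage intermediate layer protein, was 24.5 to 98.0 CPM against 183 to 367 CPM (-2.24 ± 0.35), and Ccn5 was 29.0 to 41.7 CPM against 70.3 to 125 CPM (-1.38 ± 0.17). The proteoglycans had a median of -0.64, and Prelp was among those lower in IR (-1.68 ± 0.19).

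Postn, periostin, and Ccn2, connective tissue growth factor, did not follow either pattern. Postn was 190, 771, 418 and 629 CPM in IR and 403, 778, 404 and 289 CPM in MI, against 43.6 to 95.0 CPM in the shams. Every injured library lay above every sham, IR and MI overlapped, and the difference was not called (0.08 ± 0.38, edgeR adjusted p = 0.904). IR replicate 1 lay well under the other IR libraries. Ccn2 was 279 to 714 CPM in IR and 235 to 677 CPM in MI (0.20 ± 0.32, edgeR adjusted p = 0.708). Leaving out IR replicate 2 turned the sign of both genes, to -0.18 and -0.09, and Postn also turned without IR replicate 4 (-0.03) or MI replicate 4 (-0.08).

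Genes that process matrix leaned toward IR. Of 16 collagen crosslinking and processing genes 7 were higher and none lower, led by P4hb, the prolyl hydroxylase beta subunit (0.55 ± 0.08), and P4ha3 (6.49-fold). Of 18 matrix proteases and inhibitors 9 were higher (50%) and 2 lower (11.1%, near the 10.6% of all genes tested). Timp1, the metalloproteinase inhibitor, was 70.5, 68.1, 137 and 94.4 CPM in IR and 13.2, 24.6, 18.2 and 14.3 CPM in MI (2.38 ± 0.24), whereas Mmp2, gelatinase A, was lower (66.6 to 85.6 CPM against 96.8 to 147 CPM; -0.72 ± 0.13). Fibroblast identity genes divided as well: beside the higher collagens, Pi16, a marker of adventitial fibroblasts, was 69.1, 70.0, 101 and 66.0 CPM in IR and 221, 265, 181 and 155 CPM in MI (-1.44 ± 0.17), and Gsn, gelsolin, was -0.77 ± 0.10. Igfbp6, an insulin-like growth factor binding protein, was 9.31 to 12.4 CPM in IR and 31.6 to 55.6 CPM in MI (-1.96 ± 0.17).

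**Figure D5:**
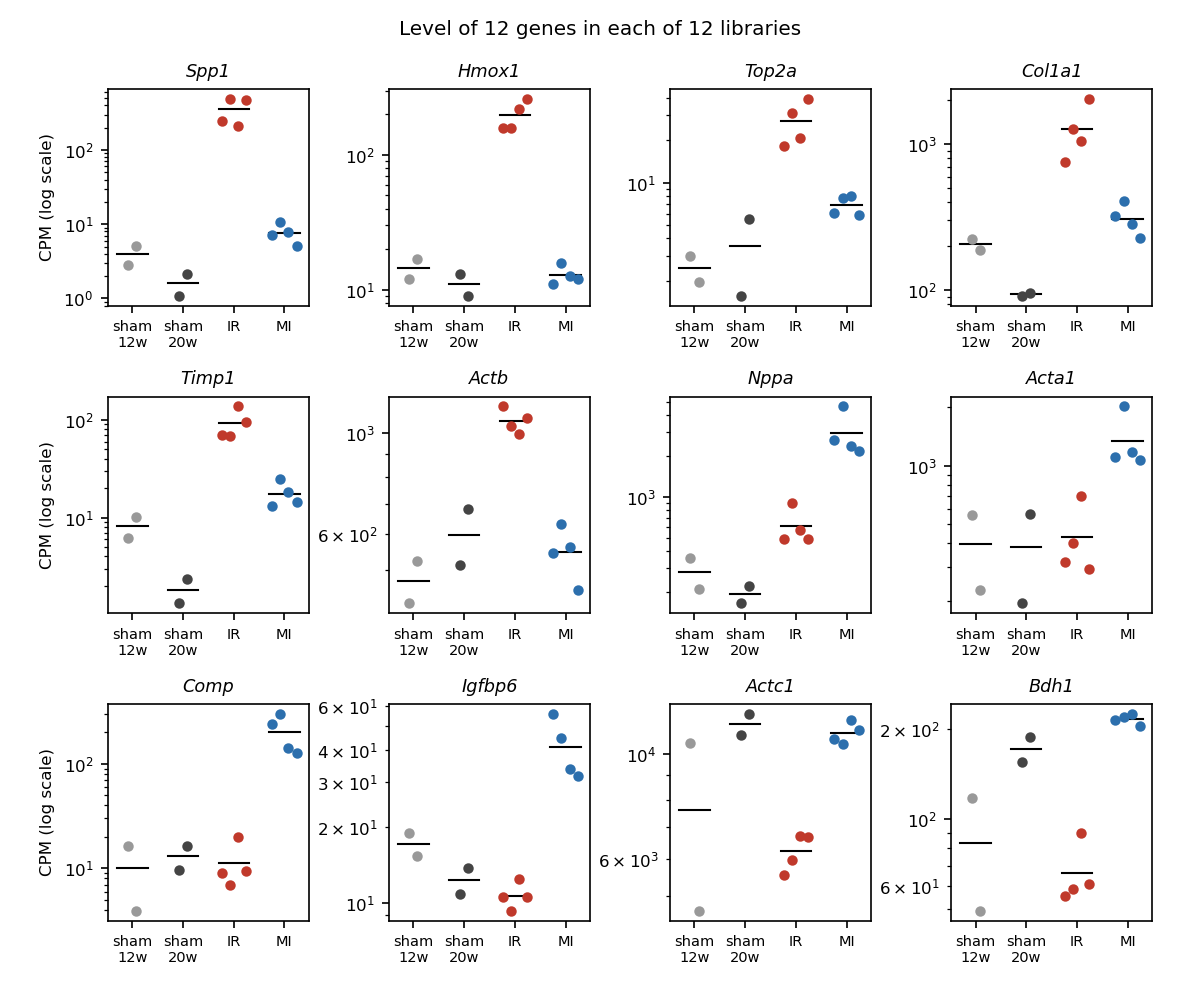
Each point is 1 library and each line a group mean, with CPM on a log scale, for 12 genes in 2 shams of each age, 4 IR and 4 MI libraries. Spp1, Hmox1, Top2a, Col1a1, Timp1 and Actb are higher in all 4 IR libraries than in all 4 MI libraries, Nppa, Acta1, Comp and Igfbp6 are higher in MI, and Actc1 and Bdh1 are lower in IR, where sham 12 weeks replicate 2 lies as low as IR.

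Genes of the cardiomyocyte were lower in IR, by smaller amounts. Of 11 cardiomyocyte markers 6 were lower and none higher (median -0.41), and their sum was 47102 to 56539 CPM in IR, 62277 to 77769 CPM in MI and 66419 to 86747 CPM in the shams. The lower share of cardiomyocyte RNA moved with the higher share of leukocyte RNA, and its part in the results on muscle genes was not tested. Actc1, cardiac alpha-actin, was 5536, 5942, 6706 and 6674 CPM in IR and 10743, 10490, 11764 and 11210 CPM in MI (-0.84 ± 0.11). Myh6, the fast myosin heavy chain of adult mouse ventricle, was -0.76 ± 0.18 (8770 to 15942 CPM against 16905 to 22304 CPM). For both genes sham 12 weeks replicate 2 was low as well, at 4649 and 13663 CPM. Of 22 sarcomere and Z-disc genes 9 were lower and none higher (median -0.29), including Ldb3, a Z-disc scaffold (-0.56 ± 0.08). Of 20 calcium-handling genes 7 were lower and 1 higher. Casq2, which buffers calcium inside the sarcoplasmic reticulum, was 574 to 761 CPM in IR and 1111 to 1351 CPM in MI (-0.92 ± 0.10), and Jph2, which holds that membrane to the T-tubule, was -0.47 ± 0.07. Atp2a2, the calcium pump, passed narrowly (-0.38 ± 0.13, edgeR adjusted p = 0.0476), and its groups overlapped. It was not called when any library except IR replicate 4 or MI replicate 2 was left out (-0.40 to -0.31). Pln, which inhibits that pump, was not called (0.05 ± 0.13, edgeR adjusted p = 0.815) and turned to -0.02 without MI replicate 2. Of 21 ion channel genes 8 were lower and 3 higher, with Kcnj11, the pore of the ATP-sensitive potassium channel, at -0.58 ± 0.07; with library size alone 4 were lower and 4 higher. That scaling gave 4 lower and none higher for the cardiomyocyte markers, and 4 lower and 1 higher for the calcium-handling genes.

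Stress genes of the myocyte separated from one another. Nppa, atrial natriuretic peptide, was 492, 903, 576 and 487 CPM in IR, 2614, 4632, 2363 and 2183 CPM in MI and 165 to 355 CPM in the shams. Both injuries lay above the shams, with MI 4.84-fold above IR (log2 -2.28 ± 0.26, edgeR adjusted p = 0.000203). Acta1, skeletal alpha-actin that the stressed ventricle re-expresses, was 319, 401, 695 and 293 CPM in IR and 1113, 2022, 1178 and 1068 CPM in MI (-1.67 ± 0.28); IR overlapped the shams. Ankrd1, a stretch-responsive titin-binding protein, was -0.63 ± 0.17 and was not called without IR replicate 4 (-0.53, edgeR adjusted p = 0.0544). Nppb, brain natriuretic peptide, and Myh7 did not separate the groups: Nppb was 250 to 515 CPM in IR and 431 to 886 CPM in MI (-0.47 ± 0.24, edgeR adjusted p = 0.2), and Myh7 was 9186, 5628, 1894 and 2722 CPM in IR and 3381, 4198, 2749 and 2559 CPM in MI (0.58 ± 0.39, edgeR adjusted p = 0.324). Sprr1a, a small proline-rich protein induced by injury, went the other way (29.0 to 90.5 CPM in IR, 4.12 to 12.8 CPM in MI, 0.723 CPM or less in the shams; 2.56 ± 0.36).

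Among metabolic genes the called changes were nearly all lower in IR, less so with library size alone, and most genes were not called. Over all genes tested 10.6% were called lower and 11.8% higher. Of 20 glycolysis and glucose uptake genes 10 were lower and 1 was higher; with library size alone 5 were lower and 2 higher. Gapdh, the glycolytic dehydrogenase, was 863, 810, 875 and 803 CPM in IR and 1068, 1278, 1222 and 1143 CPM in MI (-0.50 ± 0.09). In the list of the TCA cycle with branched-chain breakdown, 11 of 25 were lower and none higher, led by the pyruvate dehydrogenase components Pdhx (-0.66 ± 0.09) and Dlat (-0.46 ± 0.08); with library size alone 2 were higher and 3 lower. Of 30 fatty acid oxidation genes 5 were lower (16.7%, not far from the share of all genes) and 25 not called. With library size alone 3 were lower and 1 higher. Acsl1, which activates long-chain fatty acids, was -0.57 ± 0.12 and Fabp3, the heart fatty acid binding protein, -0.54 ± 0.12. Only 2 of 30 nuclear respiratory chain genes were lower (6.67%), and their median of -0.13 became 0.01 with library size alone. Their sum was 20910 to 23902 CPM in IR and 21134 to 27003 CPM in MI, both below the shams (29829 to 32487 CPM). The TCA and branched-chain sum was also below the shams in both injuries (14898 to 15969 and 16108 to 19999 CPM against 20792 to 23994 CPM). For glycolysis and fatty acid oxidation the MI sums overlapped the shams. These sums carry no test. Bdh1, the mitochondrial enzyme that starts ketone body use, stood out: it was 55.6, 58.7, 89.5 and 60.8 CPM in IR and 214, 219, 224 and 204 CPM in MI (-1.71 ± 0.13, edgeR adjusted p = 1.97e-05). MI lay above all 4 shams (49.5 to 187 CPM), which IR overlapped. Of 18 heat shock genes 9 were lower and 2 higher, with Hsph1, a cytosolic chaperone, at -0.71 ± 0.09; with library size alone 4 were lower and 3 higher.

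Rapidly induced and time-of-day genes varied strongly between libraries. Of 19 immediate early genes 9 were higher and none lower. Atf3, a stress-induced transcription factor, was 92.1, 84.6, 31.6 and 18.4 CPM in IR and 6.43, 13.9, 7.57 and 2.95 CPM in MI (2.86 ± 0.53). Of 10 clock genes of the Per phase 2 were higher (20%, against 11.8% of all genes tested), too few to read as a change of the list. Per1, a light- and glucocorticoid-responsive repressor of the clock, was 121, 78.0, 37.3 and 117 CPM in IR and 26.0, 14.9, 26.6 and 36.7 CPM in MI, but 30.1 to 90.5 CPM in the shams (1.75 ± 0.34). Per2 was 1.72 ± 0.45, and was not called without MI replicate 1 (1.54, edgeR adjusted p = 0.0543). None of 6 genes of the opposite phase was called by edgeR; Arntl, which encodes the activator BMAL1, was 3.75 to 18.8 CPM in IR and 10.2 to 37.3 CPM in MI (-1.31 ± 0.46, edgeR adjusted p = 0.0633), and was called without IR replicate 3 (-1.77) or without MI replicate 4 (-1.56). The labels used here give no time of day at collection, and its part in these values was not tested.

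Markers of tissue other than ventricular myocardium were high in some MI libraries. The other 7 atrial markers, Nppa left out, summed to 518, 881 and 505 CPM in MI replicates 1 to 3 and to 55.7 CPM in MI replicate 4, against 61.4 to 241 CPM in IR and 78.3 to 372 CPM in the shams. Myl7, the atrial light chain, was 164, 209 and 137 CPM in those replicates and 2.68 CPM in replicate 4, where the atrial marker Sln had no read. Nppa in replicate 4 was 2183 CPM, above every IR and sham library, and with it as the only MI library, assumed to vary like the other groups, the log2 difference was -1.81 (edgeR adjusted p = 0.0104). Adipocyte markers summed to 116, 131, 79.1 and 34.4 CPM in MI and 20.1 to 36.9 CPM in IR; the 5 tested were all lower in IR (median -3.42), and with MI replicate 4 alone their median was 0.75 and none was called. Adipoq, adiponectin, was 9.07, 13.03, 7.202 and 0.983 CPM in MI. Scd1 was 427, 189, 65.6 and 26.6 CPM in MI, also lowest in replicate 4, and was -0.26 (edgeR adjusted p = 0.644) against MI replicate 4 alone. The 9 B cell and plasma cell markers summed to 260, 63.5, 171 and 56.8 CPM in MI and 33.9 to 56.7 CPM in IR, with Igkc at 66.0, 10.1, 41.4 and 5.72 CPM in MI. Comp (-3.45), Igfbp6 (-1.54), Casq2 (-1.01) and Bdh1 (-1.61) remained called against MI replicate 4 alone, whereas Acta1 (-1.31), Fmod (-1.95) and Thbs4 (-1.85) did not. The other large falls also shrank in that setting. Jchain was -1.98, Igkc -0.95, Dio2 -1.95, Atp6v0a4 -2.77, 1500015O10Rik -1.50, Col8a2 -2.49 and Col22a1 -1.99.

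A fit of all 12 libraries asked whether IR minus its 12-week shams differed from MI minus its 20-week shams. Of 14168 genes, 13 were called (0.0918%), 10 higher and 3 lower, and 1570 had an unadjusted p under 0.05. Hmox1 had the smallest p (3.56 ± 0.34, edgeR adjusted p = 0.000704). Pf4, platelet factor 4, which macrophages also make, was 36.1 to 48.7 CPM in IR, 10.4 to 12.6 CPM in MI and 8.55 to 11.2 CPM in the shams (1.57 ± 0.22), and Cd68 was 2.33 ± 0.36. Slc7a8, an amino acid transporter, and Tmem8 were 2.11 ± 0.34 and 1.70 ± 0.26. Lower were Nppa (-2.81 ± 0.46), Igfbp6 (-2.42 ± 0.31) and Ccn5 (-2.08 ± 0.31). The count rests on single libraries: it was 3 without IR replicate 4, 4 without MI replicate 1, 2 without sham 12 weeks replicate 1, and 1 without either 20-week sham, and it rose to 55 without IR replicate 1, 27 without IR replicate 3, 24 without MI replicate 2 and 20 without sham 12 weeks replicate 2. Between the 2 pairs of shams no gene was called by edgeR, 933 had an unadjusted p under 0.05, and DESeq2 called 5; without sham 12 weeks replicate 1 edgeR called 3.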

How the data were processed

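RNA from mouse left ventricle was sequenced, and the deposited table holds read counts per gene for 39 libraries. Per the submitters' processing notes, the authors used STAR 2.7.3a, featureCounts, Subread 2.0.0 and the mm10 build; the sources used here name neither an annotation release nor a strand setting, so overlapping, antisense and near-identical genes are uncertain. Counts in rows without a gene symbol made up 0.133% of the deposited counts. Genes were filtered with filterByExpr, scaled by trimmed mean of M-values and tested with edgeR 4.0.16 (glmQLFit and glmQLFTest, R 4.3.3), with Benjamini-Hochberg adjustment over all genes tested. The IR against MI fit held 8 libraries, and the sham comparison and the difference beyond shams 12. A positive log2 change is higher in IR, and its SE is the size of the change over the root of F. The script was tested on simulated counts. DESeq2 1.42.0 and limma 3.58.1 served as alternatives. No pair of libraries within a group agreed within sampling noise.

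The comparison and the gene lists were chosen with earlier results of these data known. Genes named are 12 fixed markers, the 10 largest called rises and falls (at least 5 CPM in a group, no overlap), the 2 or 3 smallest p per list, members of core lists, and the 5 largest each way beyond shams. A gene that this rule names is not reported here. Same-numbered IR and MI libraries correlated at -0.05, 0.13, 0.14 and -0.02, so numbers were not taken to pair samples. Promoters were matched by symbol, with the first entry kept per gene.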

Additional observations from a re-analysis of the deposited data

Results flagged for a closer look

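Single libraries stood apart in 18 of 302 groups of 4 examined (5.96%; chance flags about 1 in 20), where the gap to the nearest library over the group's range, the value given here, passed Dixon's critical value. In IR replicate 3 these were Bdh1 (0.846), Dio2 (0.961), Fmod (0.839), Mt2 (0.833) and Pi16 (0.885), all highest there, and Pcna (0.83), lowest there. IR replicate 4 was highest for Csf3r (0.917) and Pf4 (0.894) and lowest for Nppb (0.918). IR replicate 1 was highest for Gsn (0.84) and Hspa1a (0.871) and lowest for Ltbp3 (0.838). All 6 in MI were highest in replicate 2: Acta1 (0.885), Ankrd1 (0.951), Cd68 (0.896), Ctss (0.844), Lyve1 (0.868) and S100a8 (0.843).

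In 13 genes the log2 difference of IR from its shams differed from that of MI from its shams, by edgeR's interaction contrast. Higher were Hmox1 (3.56), Cd68 (2.33), ENSMUSG00000089672 (2.30), Slc7a8 (2.11), Tmem8 (1.70), Pf4 (1.57), Actb (1.29), Tcirg1 (1.25), Ifi207 (1.21) and Ftl1 (1.17), and lower were Nppa (-2.81), Igfbp6 (-2.42) and Ccn5 (-2.08).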

How the results depend on the processing

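The count of genes called between IR and MI stayed within 1.5 times under 12 other settings (2577 to 3491) and when each library was left out (2350 to 2702). It was 514 with a fold threshold of 1.5, and 530 with MI replicate 4 as the only MI library, a setting added after seeing the data, in which fewer samples enter. The replicate block gave 2878. Library size alone gave 3136 calls, 80.2% of them higher in IR against 52.7%. Beyond age-matched shams, 13 genes became 228 with DESeq2, 326 without the filter, 25 with the replicate block, and 1 to 55 when a library was left out. Between the shams 0 became 5 with DESeq2, 11 without the filter, and 0 to 3 with a library left out. The causes were not tested. Of 137 called genes followed, 124 kept call and direction whichever library was left out and 56 under all other settings together. Taken separately, 79 did with the fold threshold, 65 against MI replicate 4 alone, and 113 under all the rest. Against MI replicate 4 alone the sign turned for Arntl (0.03), Cfd (0.75), Cidec (1.54), Myl4 (2.74), Myl7 (3.71), Nppb (0.06), Plin1 (0.77) and Pln (-0.16). With a library left out the log2 difference ranged from -0.09 to 0.61 for Ccn2, -0.28 to 0.03 for Lyve1, -0.02 to 0.16 for Pln and -0.18 to 0.46 for Postn. Depth limits genes near 1 CPM, such as 5 of 10 neutrophil markers, and 4 libraries a group limit the small changes of metabolic genes.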

Other observations

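Alb, serum albumin, had a large fitted difference, -5.45 ± 1.52, that was chosen for mention after its values were seen. It rested on MI replicates 3 and 4 (95.0 and 24.0 CPM), with 0.165 and 0.266 CPM in MI replicates 1 and 2 and 1.82 CPM or less in IR. Without MI replicate 3 it was -3.51 (edgeR adjusted p = 0.102). It was also not called without IR replicate 1 (-5.18, edgeR adjusted p = 0.0519), IR replicate 2 (-5.58, edgeR adjusted p = 0.056) or IR replicate 4 (-4.93, edgeR adjusted p = 0.0631).

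None of 5 erythroid genes tested was called by edgeR, and the sum over that list was 29.6 to 170 CPM in IR, 72.0 to 85.0 CPM in MI and 39.7 to 137 CPM in the shams. Igf2, insulin-like growth factor 2, was 28.5, 28.1, 31.0 and 23.0 CPM in IR and 9.65, 11.2, 16.3 and 15.8 CPM in MI. The MI libraries lay below all 4 shams (19.1 to 28.8 CPM), and IR overlapped them (1.04 ± 0.16, edgeR adjusted p = 0.00109). Edn3, an endothelin, was 0.577 to 2.88 CPM in IR and 6.88 to 10.2 CPM in MI (-2.58 ± 0.35), and Npr3, the clearance receptor for natriuretic peptides, was 7.79 to 12.5 CPM against 17.0 to 24.8 CPM (-1.11 ± 0.16). With MI replicate 4 as the only MI library both falls were smaller, at -2.16 for Edn3 and -1.03 for Npr3.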
